A study of Homo sapiens with 48 samples.

Results

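The 8 genes described here, PHOX2A, HAND2, GATA2, GATA3, ISL1, TFAP2B, TBX2 and KLF7, encode transcription factors of the adrenergic core circuitry of neuroblastoma. They were taken by symbol from the 19923 gene names in the count files, and all 8 passed the filter on low counts. Adrenergic neuroblastoma cells keep the programme of developing sympathetic neurons, in which a few factors bind their own and each other's enhancers and so hold the cell state. STM2457 inhibits METTL3, the enzyme that writes N6-methyladenosine on mRNA, a mark known to lie often near stop codons and to hasten the decay of many transcripts. Transcripts of regulatory factors are typically short-lived, which actinomycin D, a blocker of transcription, makes visible.

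Kelly and NGP are human neuroblastoma cell lines with MYCN amplification and, per the labels, a wild-type genotype. Each line received 8 µM STM2457 or its solvent DMSO for 3 or 6 days, followed by 10 µg/ml actinomycin D for 0, 3 or 6 h, so the 6 h and 3 h groups of both treatments also carry the blocker. Poly(A) RNA was sequenced in 48 libraries, which form 24 groups of 2. The labels do not say that the 2 libraries of a group are separate cultures, so the p-values measure only the spread between these libraries, which may be technical.

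The libraries held 11139550 to 21942238 fragments in genes, and the 8 factors took 0.0649 to 0.376% of them, with 130 to 26533 fragments for 1 factor in 1 library. The SD between the 2 libraries of a group had a median of 5.47% of the mean in Kelly and 5.91% in NGP. At most it reached 43.4% in Kelly and 25.3% in NGP. CPM below are counts divided by library size after TMM scaling and brought to the usual CPM unit, a scale on which the typical gene does not change, so every level and difference is relative to the other genes of the library. ERCC spike-ins, synthetic RNAs that took 0.265 to 0.671% of fragments, gave another scaling, and results that turn under it are named. Fits that left out 1 library have a group of 1 and less power, so a call that ended in them need not depend on that library. In bulk RNA, fewer cells of a type and less RNA per cell cannot be told apart.

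The sequences that bear on mRNA methylation and decay are short. GGACT, the DNA spelling of a frequent context of the methyl mark, occurred in the main transcript (MANE Select) of 7 of the 8 genes and in 88.5% of 19061 such transcripts, and TBX2 had none. The windows below show the copy nearest to the stop codon in HAND2, KLF7 and GATA2, where it lies in the 3′ UTR, with GGACT in capitals. The copies start 67, 70 and 359 bases after the stop codon. ISL1 is shown for TTATTTATT, an AU-rich motif known from short-lived transcripts. Among the 8 genes it was found in the 3′ UTR of ISL1 alone, and it occurred in 8.6% of the 18780 transcripts with a 3′ UTR.
HAND2 (GRCh38, chr4:173527196-173527220, minus strand): tgcagacccaGGACTccggaaaagc
KLF7 (GRCh38, chr2:207081129-207081153, minus strand): gcagggggctGGACTtcaggcgggg
GATA2 (GRCh38, chr3:128480646-128480670, minus strand): tttctaacaaGGACTtggagacttg
ISL1 (GRCh38, chr5:51394498-51394522, plus strand): gtaatttaTTATTTATTgtcggaag

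The shorter motif ATTTA was denser in the 3′ UTR than the median transcript's 1.55 per kb in 7 of the 8 genes, from 2.53 per kb in HAND2 to 6.25 in TBX2, and GATA2 had 1.26. A match is a description of the letters and not a measured site.

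Promoter windows from RefSeq (GRCh38.p14, from 250 bases before to 50 after a start) were found for 7 of the 8 genes, 16 windows in all, and TBX2 was not among them. The motif AGATAA, bound by factors of the GATA family, was searched on both strands, like the others below, and occurred in a window of 2 genes, HAND2 and ISL1, and in 10.3% of 35116 windows. TAATTA, a homeodomain motif, occurred in HAND2 and KLF7 and in 4.84% of all windows. The E-box CATCTG occurred in TFAP2B and KLF7 and in 14.7%, and the AP-2 motif GCCNNNGGC in GATA2 and GATA3 and in 23.2%. These are genes with the motif in any of their windows, and GATA2, GATA3 and KLF7 have several windows each. The percentages are shares of single windows, so the gene counts cannot be read against them. The 250 bases before the starts of HAND2 and ISL1 are shown because these genes were called in opposite directions under STM2457 in Kelly at 6 days. Motif letters are in capitals, both hold the GATA motif, and a link of the motifs to these changes was not tested. In HAND2 the homeodomain motif and the GATA motif, read on the other strand, overlap in 1 run.
HAND2 (GRCh38.p14, chr4:173530230-173530479, minus strand): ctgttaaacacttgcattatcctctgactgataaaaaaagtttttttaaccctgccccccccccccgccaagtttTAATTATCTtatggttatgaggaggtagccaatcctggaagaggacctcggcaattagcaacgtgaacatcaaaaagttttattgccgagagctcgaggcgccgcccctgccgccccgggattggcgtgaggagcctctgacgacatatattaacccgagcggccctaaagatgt
ISL1 (GRCh38.p14, chr5:51383198-51383447, plus strand): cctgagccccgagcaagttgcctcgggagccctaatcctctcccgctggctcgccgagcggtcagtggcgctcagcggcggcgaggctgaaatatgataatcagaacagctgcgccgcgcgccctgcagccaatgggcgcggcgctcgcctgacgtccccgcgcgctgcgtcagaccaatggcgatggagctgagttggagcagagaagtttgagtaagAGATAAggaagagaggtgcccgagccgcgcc

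The counted exons lie on GRCh38 at chr11:72239077-72245664 for PHOX2A, chr4:173524969-173530229 for HAND2 and chr3:128479427-128493201 for GATA2, all on the minus strand. GATA3 lies at chr10:8045378-8075198, ISL1 at chr5:51383448-51394730, TFAP2B at chr6:50818723-50847619 and TBX2 at chr17:61399843-61409466, all on the plus strand. KLF7 lies at chr2:207074137-207167267 on the minus strand. Of the counted bases of HAND2, 24.1% also belong to exons of HAND2-AS1, a lncRNA on the opposite strand. Since the headers name no strand option, reads of the 2 genes in this part cannot be told apart. The percentage is a share of bases, and the share of HAND2's reads that came from HAND2-AS1 was not measured in any group. The shared part of the counted bases was 3.98% for PHOX2A (with INPPL1), 0.723% for KLF7 and 0.46% for TBX2, and 0 for the other 4.

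Before actinomycin D, HAND2 and GATA2 were the factors with the highest level per length in Kelly, and HAND2 led in NGP. On the scale of CPM per kb of counted exon, in DMSO at 3 days in Kelly, HAND2 stood at 253 ± 1.29 and GATA2 at 253 ± 2.92 (SD, n = 2 each), which did not differ beyond their spread. PHOX2A followed at 127 ± 12.2, GATA3 at 82.9 ± 4.91 and TFAP2B at 63.2 ± 4.99. TBX2 at 43.9 ± 2.42 and ISL1 at 36.2 ± 2.76 came next. KLF7 was lowest at 14.8 ± 2.24, still above 84.6% of the 17343 genes that passed the filter on low counts over both lines. In NGP the order at 3 days in DMSO was HAND2 at 355 ± 2.28, then GATA3 at 127 ± 5.59 and PHOX2A at 121 ± 2.02, which were within their spread of each other. GATA2 at 60.3 ± 6.53 stood above ISL1 at 43.2 ± 1.10 and TBX2 at 37.9 ± 1.51. TFAP2B at 16.9 ± 1.45 and KLF7 at 9.27 ± 0.933 closed the NGP order.

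**Figure D1:**
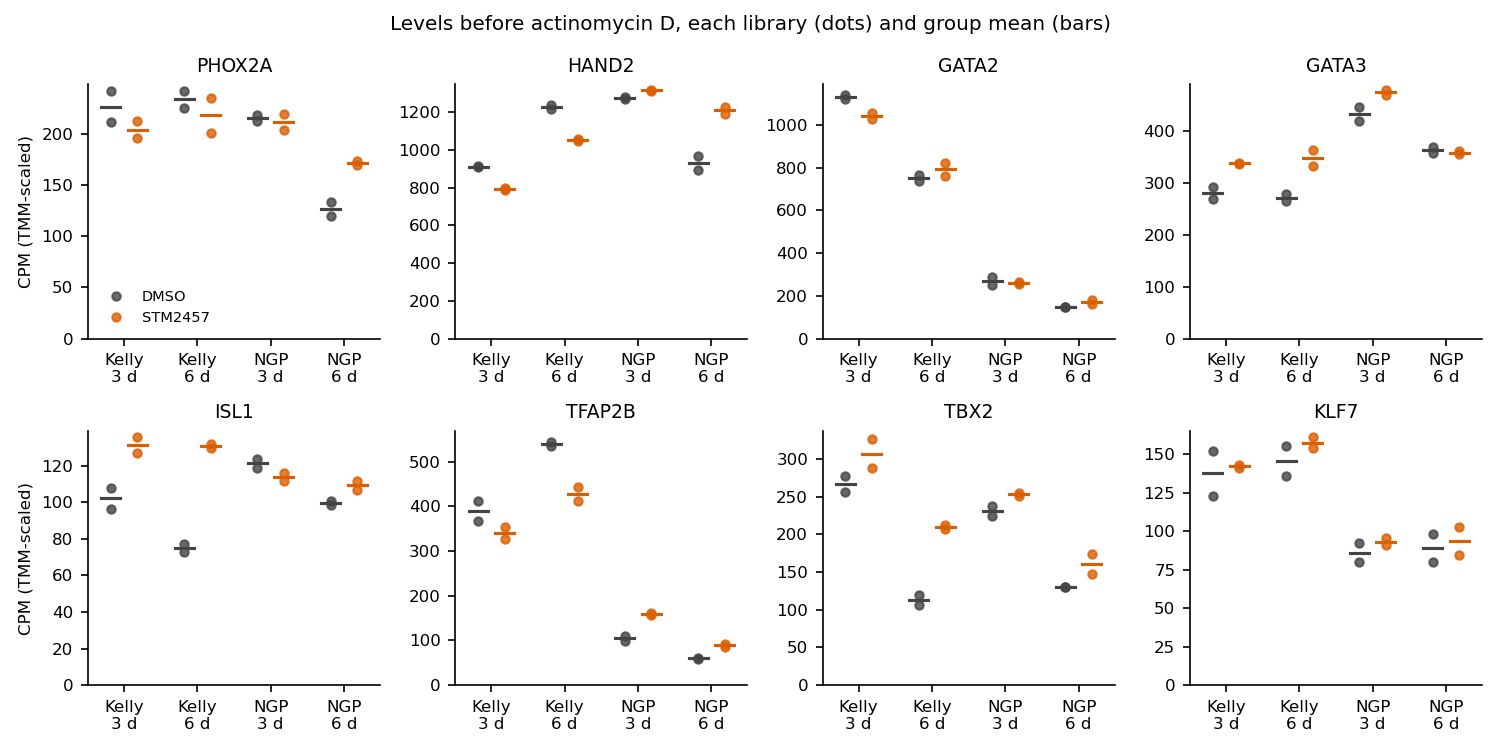
CPM after TMM scaling (y axis, linear from 0) of each factor before actinomycin D, by line and days of treatment (x axis). Dots are the 2 libraries of a group and bars their mean, in grey for DMSO and orange for STM2457. GATA2 and TFAP2B are several-fold higher in Kelly, and with STM2457 TFAP2B lies higher in NGP at both durations.

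The lines differed in the level of most factors in DMSO at 0 h. At 3 days, 5 of the 8 passed the test between lines (edgeR, adjusted p under 0.05) against 30% of 17343 genes. At 6 days 6 of 8 passed against 31.6%, so the shares stand above a background that is itself large. Here and below, the background is all genes tested and was not matched for level, which bears on how readily a gene is called. In DMSO at 0 h the lowest of the 8, KLF7 in NGP at 3 days, stood above 75.7% of genes in CPM per kb. GATA2, a zinc finger factor of sympathetic and blood progenitors, read 1140 and 1122 CPM in the 2 Kelly DMSO libraries at 3 days and 290.3 and 249 in NGP. The groups were far apart, and the log2 difference, NGP minus Kelly, was -2.07 ± 0.11 (SE, adjusted p = 3.93e-26) at 3 days and -2.35 ± 0.11 (adjusted p = 6.59e-29) at 6 days.

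TFAP2B, the AP-2 beta factor of sympathetic neuron differentiation, showed the widest gap. Its DMSO libraries at 6 days read 544 and 535 CPM in Kelly and 58.7 and 60.0 in NGP, a log2 difference of -3.18 ± 0.11 (adjusted p = 8.33e-36), after -1.90 ± 0.11 at 3 days. GATA3, the sympathoadrenal relative of GATA2, was the factor higher in NGP at both times, by 0.62 ± 0.10 and 0.42 ± 0.10 on the log2 scale (adjusted p = 1.16e-06 and 0.000734). KLF7, a Krüppel-like factor of sensory and sympathetic neurons, was lower in NGP by differences of -0.68 ± 0.16 and -0.71 ± 0.16, and the 3-day call ended under ERCC scaling (-0.27). HAND2, a basic helix-loop-helix factor needed for noradrenergic fate, was higher in NGP at 3 days (0.49 ± 0.055) and lower at 6 days (-0.40 ± 0.054), both past the threshold.

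PHOX2A, the homeodomain factor that drives noradrenergic enzymes, differed between lines at 6 days alone, with 242 and 225 CPM in Kelly and 119.9 and 133 in NGP (-0.89 ± 0.14, adjusted p = 1.40e-07). Its 3-day difference of -0.07 ± 0.13 did not pass and became 0.34 under ERCC scaling. ISL1, a LIM-homeodomain factor of neuronal specification, differed by 0.25 ± 0.19 and 0.42 ± 0.19 without passing. TBX2, a T-box repressor, differed by -0.21 ± 0.11 and 0.20 ± 0.12, neither of which passed.

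Levels in DMSO also differed between the 3-day and 6-day groups. These groups are separate libraries, so days of culture cannot be told apart from other differences between them, such as the harvest. Whether the 2 lines differed in this change was not tested. Between 3 and 6 days, 4 of 8 factors changed in Kelly against 8.52% of genes, and 6 of 8 fell in NGP against 12.1% of genes called in either direction. In Kelly, TBX2 fell from 256 and 277 CPM to 106 and 119, a log2 change of -1.26 ± 0.12 (adjusted p = 5.09e-18). GATA2 in the same cells fell from 1140 and 1122 to 766 and 739 CPM (-0.60 ± 0.074, adjusted p = 7.98e-12). HAND2 and TFAP2B rose in Kelly by 0.41 ± 0.060 and 0.46 ± 0.087 (adjusted p = 7.59e-09 and 1.99e-05), and the groups did not overlap for any of these 4 genes. Here and below, such statements describe genes already called, and the share of all genes without overlap was not counted.

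In NGP the DMSO level of GATA2 fell from 290.3 and 249 to 146 and 149 CPM (-0.89 ± 0.13, adjusted p = 6.03e-08). TBX2 fell from 224 and 237 to 130.1 and 129.9 CPM (-0.84 ± 0.11), TFAP2B from 97.8 and 110.4 to 58.7 and 60.0 (-0.83 ± 0.14) and PHOX2A from 212 and 218 to 119.9 and 133 (-0.78 ± 0.12). For each of these 4 factors both 6-day libraries lay below both 3-day libraries. HAND2 fell by 0.47 ± 0.055 and GATA3 by 0.27 ± 0.084 on the log2 scale, and the GATA3 call (adjusted p = 0.0204) ended without NGP DMSO 3-day replicate 1 or either 6-day DMSO replicate. ISL1 (-0.30 ± 0.16) and KLF7 (0.04 ± 0.16) did not pass. The 6-day DMSO libraries that are low here are also the controls of the 6-day STM2457 effects in NGP below.

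The question of whether METTL3 inhibition changes the circuitry was addressed by STM2457 against DMSO at 0 h. In Kelly the factors split: at 6 days TBX2, ISL1 and GATA3 rose while TFAP2B and HAND2 fell. At 3 days HAND2 alone passed, lower by TMM scaling and higher (0.19) by ERCC scaling, 1 of 8 factors against 1.68% of genes, and at 6 days 5 of 8 passed against 3.97% of genes. The medians over the 8 factors were near 0, at -0.05 and 0.12, beside 0 for all genes at both times. Under ERCC scaling, with the median of all genes at 0.38, 6 of 8 were called at 3 days, all higher, from 0.19 for HAND2 to 0.76 for ISL1. Of all genes, 22.2% were called under that scaling, 99.1% of these higher, and the median of the 8 factors was 0.36.

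TBX2 read 106 and 119 CPM in DMSO and 212 and 207 in STM2457 at 6 days in Kelly. The treated libraries were both higher, by a log2 difference of 0.91 ± 0.12 (adjusted p = 3.27e-10). ISL1 read 72.7 and 77.1 CPM in DMSO and 129.8 and 132 in STM2457, again without overlap (0.83 ± 0.18, adjusted p = 0.000520). Both treated 6-day levels lay below or near the 3-day treated levels of 326 and 288 CPM for TBX2 and 127 and 136 for ISL1, and the DMSO levels of both genes were lower at 6 than at 3 days. For ISL1 that DMSO change, -0.46 ± 0.18, did not pass (adjusted p = 0.097).

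GATA3 rose less, from 265 and 278 CPM to 333 and 364 (0.38 ± 0.11, adjusted p = 0.0217). TFAP2B fell from 544 and 535 to 443 and 411 CPM (-0.31 ± 0.087, adjusted p = 0.0142). HAND2 fell from 1239 and 1219 to 1058 and 1047 CPM (-0.20 ± 0.060, adjusted p = 0.0284), a small shift relative to closely matching replicates. None of these groups overlapped. PHOX2A at -0.08 ± 0.13, GATA2 at 0.10 ± 0.074 and KLF7 at 0.14 ± 0.14 did not pass.

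The 3-day call of HAND2 in Kelly rested on 915 and 908 CPM in DMSO against 787 and 798 in STM2457 (-0.21 ± 0.060, adjusted p = 0.0398). It ended when any 1 of those 4 libraries was left out, and under ERCC scaling, where the median of all genes moved to 0.38, the HAND2 difference became 0.19, still 0.19 below that median. At 6 days the HAND2 and GATA3 calls ended without any 1 of the 4 libraries, and that of TFAP2B without DMSO replicate 1, DMSO replicate 2 or STM2457 replicate 2, which left 2 to 3 of the 5 calls. The TBX2 and ISL1 calls held in all 4 of those fits, and GATA3 lost its call under ERCC scaling (0.13).

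**Figure D2:**
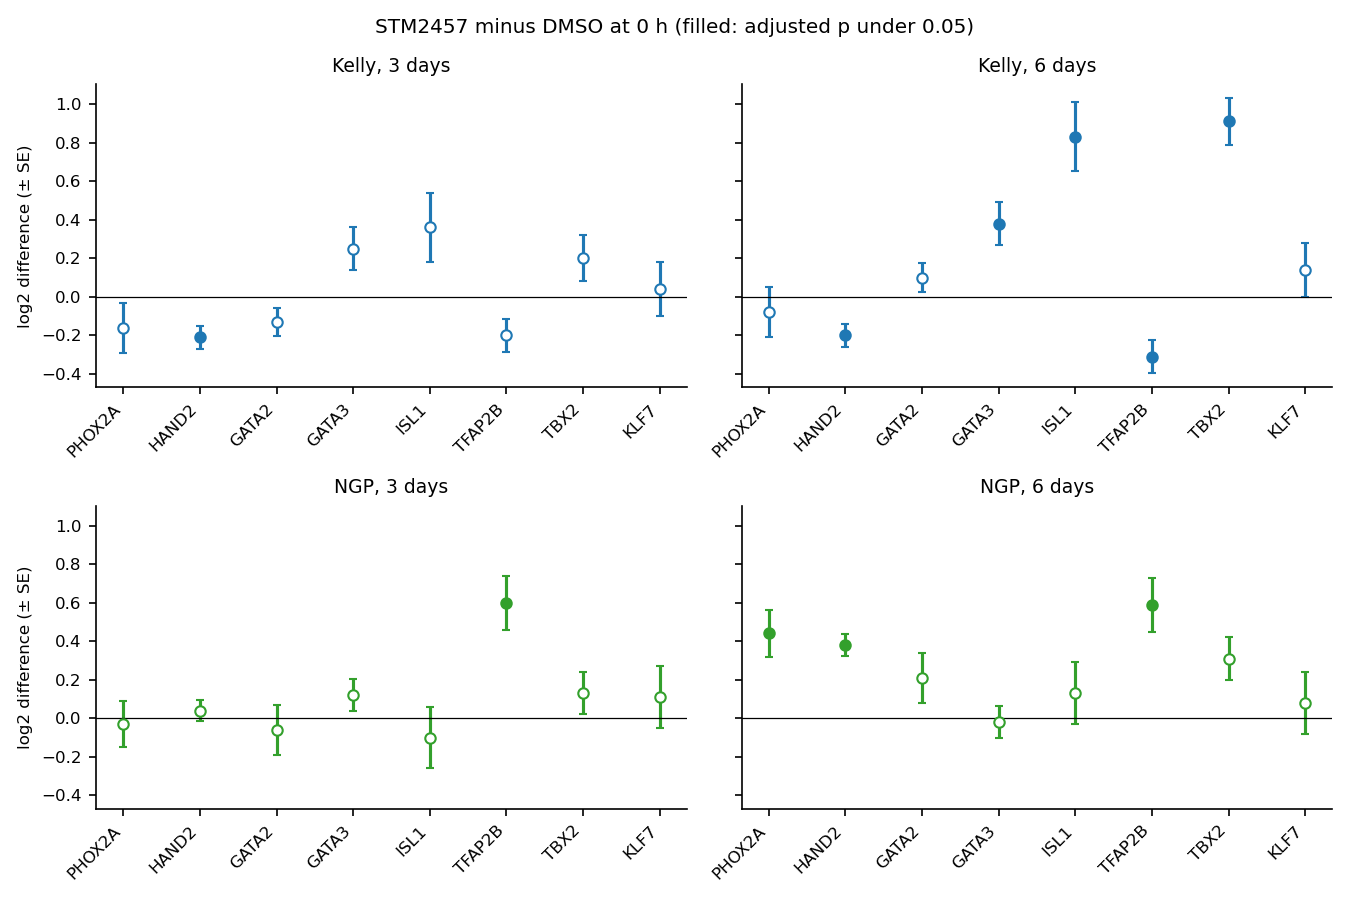
Log2 difference of STM2457 minus DMSO before actinomycin D (y axis) for the 8 factors (x axis) in each line and duration. Points are estimates with SE bars from the edgeR fit of 24 libraries per line, filled where the adjusted p was under 0.05. TBX2 and ISL1 stand highest in Kelly at 6 days, at 0.91 and 0.83, and TFAP2B is at 0.60 and 0.59 in the NGP panels.

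In NGP no factor was called lower under STM2457. TFAP2B was the 1 of 8 called at 3 days, against 3.7% of genes, and at 6 days 3 of 8 rose, against 7.99% of genes called in either direction. TFAP2B read 97.8 and 110.4 CPM in DMSO and 156 and 162 in STM2457 at 3 days (0.60 ± 0.14, adjusted p = 0.00212). At 6 days it read 58.7 and 60.0 against 85.2 and 92.8 CPM (0.59 ± 0.14, adjusted p = 0.00164). The treated level at 6 days therefore lay below the untreated level at 3 days.

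HAND2 read 896 and 968 CPM in DMSO and 1230.3 and 1193 in STM2457 at 6 days in NGP (0.38 ± 0.055, adjusted p = 9.39e-08). PHOX2A read 119.9 and 133 against 173 and 169 CPM (0.44 ± 0.12, adjusted p = 0.00760). Neither pair of groups overlapped, and both treated levels stood between the DMSO levels of 6 and 3 days. TBX2 came close at 130.1 and 129.9 against 174 and 147 CPM (0.31 ± 0.11, adjusted p = 0.0774). GATA2 (0.21 ± 0.13), ISL1 (0.13 ± 0.16), KLF7 (0.08 ± 0.16) and GATA3 (-0.02 ± 0.084) did not pass. Leaving out NGP DMSO replicate 1 ended the 3-day TFAP2B call, leaving out STM2457 replicate 2 the 6-day one, and leaving out replicate 1 of either group that of PHOX2A, while HAND2 passed in all 4 fits.

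The difference between the lines was itself tested. At 3 days 1 of 8 factors had an STM2457 effect that differed between lines, against 0.161% of genes, and at 6 days 3 of 8, against 1.75%. The effect on TFAP2B was higher in NGP than in Kelly by 0.81 ± 0.15 on the log2 scale at 3 days (adjusted p = 0.00224) and by 0.92 ± 0.15 at 6 days (adjusted p = 1.89e-05). HAND2 differed at 6 days by 0.60 ± 0.077 (adjusted p = 3.83e-08), having fallen in Kelly and risen in NGP. TBX2 differed the other way, by -0.59 ± 0.16 (adjusted p = 0.0366), a call that ended under ERCC scaling (-0.39) and in 6 of 8 fits that left out a library, those without Kelly DMSO replicate 1, either Kelly STM2457 replicate, either NGP DMSO replicate or NGP STM2457 replicate 2. The 3-day TFAP2B call ended without replicate 1 of the DMSO group of either line. The ISL1 difference at 6 days, -0.68 ± 0.27, did not pass (adjusted p = 0.297).

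A change of the STM2457 effect from 3 to 6 days was found for 1 factor in each line, against 0.788% of genes in Kelly and 2.8% in NGP. For TBX2 in Kelly the effect grew by 0.72 ± 0.17 (adjusted p = 0.00691), from 0.20 ± 0.12 to 0.91 ± 0.12. Under ERCC scaling that growth was 0.06 while the median of all genes was at -0.62, and the call also ended in 5 of 8 fits that left out a library: replicate 2 of either 3-day group, DMSO 6-day replicate 1 or either 6-day STM2457 replicate. For HAND2 in NGP the effect grew by 0.34 ± 0.077 (adjusted p = 0.00212), from 0.04 ± 0.055 to 0.38 ± 0.055, and it was 0.20 and not called under ERCC scaling. These 2 tests use the same DMSO libraries as the effects of each duration.

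After 6 h of actinomycin D all 8 factors were lower, relative to all genes, in every line, duration and treatment. In DMSO 8 of 8 were called lower, against 15.6 and 13.3% of genes at the shorter and the longer treatment of Kelly, and 18.4 and 18.7% for NGP. In STM2457 8 of 8 were called lower against 14% of Kelly genes at both durations, and 15.9 and 16.4% of NGP genes. The median level left at 6 h over the 8 factors was 20.4 to 35.3% of the 0 h mean by TMM scaling, where the median of all genes was 98.3 to 108%. By ERCC scaling it was 10.3 to 20.7% for the factors and 43.5 to 75.3% for all genes, and the 8 factors were called lower under each scaling.

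Of the 8 factors, GATA2, ISL1 and PHOX2A had the largest 6 h changes in Kelly in DMSO, at both durations. GATA2 at 3 days in DMSO went from 1140 and 1122 CPM to 305 and 279 at 3 h and 129 and 122 at 6 h, a 6 h change of -3.17 ± 0.081 on the log2 scale that left 11.1% of the starting level. ISL1 went from 108 and 96.6 to 26.3 and 33.4 and then 9.11 and 13.4 CPM (-3.18 ± 0.20). PHOX2A went from 211 and 242 to 99.6 and 78.4 and then 28.9 and 30.5 CPM (-2.92 ± 0.14). Of all genes tested there, 5.41% had a lower value than GATA2, 5.4% than ISL1 and 5.87% than PHOX2A.

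HAND2 in Kelly stood at the other end. It went from 915 and 908 CPM to 609 and 573 and then 548 and 549 at 3 days in DMSO, a change of -0.73 ± 0.061 that left 60.2%, and 24.9% of genes had a lower value. At 6 days it left 61.2% (-0.71 ± 0.060). TFAP2B was next, with 40.5 and 39.7% left at 3 and 6 days (-1.30 ± 0.089 and -1.34 ± 0.089). Part of HAND2's count may come from HAND2-AS1, and its part in this value was not tested.

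By TMM scaling, KLF7 in DMSO stood at about the same level at 3 h and 6 h. In Kelly at 3 days in DMSO its CPM were 152 and 123 at 0 h, 37.2 and 44.3 at 3 h and 44.7 and 36.4 at 6 h, so that 29.6% was left at 3 h and 29.5% at 6 h. In NGP at 3 days in DMSO 40.2% was left at 3 h and 44.2% at 6 h. By ERCC scaling KLF7 went from 19.9 to 21.9% in Kelly and from 30.6 to 25.2% in NGP at 3 days, and at 6 days it went on down from 21.6 to 13.9% and from 32.1 to 23.2%. The 3 h and 6 h changes share the 0 h libraries, and the 3 h values are given without a test. GATA3 in Kelly lost most of its level early, with 22.0% left at 3 h and 18.1% at 6 h at 3 days, while PHOX2A went from 39.4% to 13.1% over the same hours. TBX2 left 31.9% and then 22.7%.

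**Figure D3:**
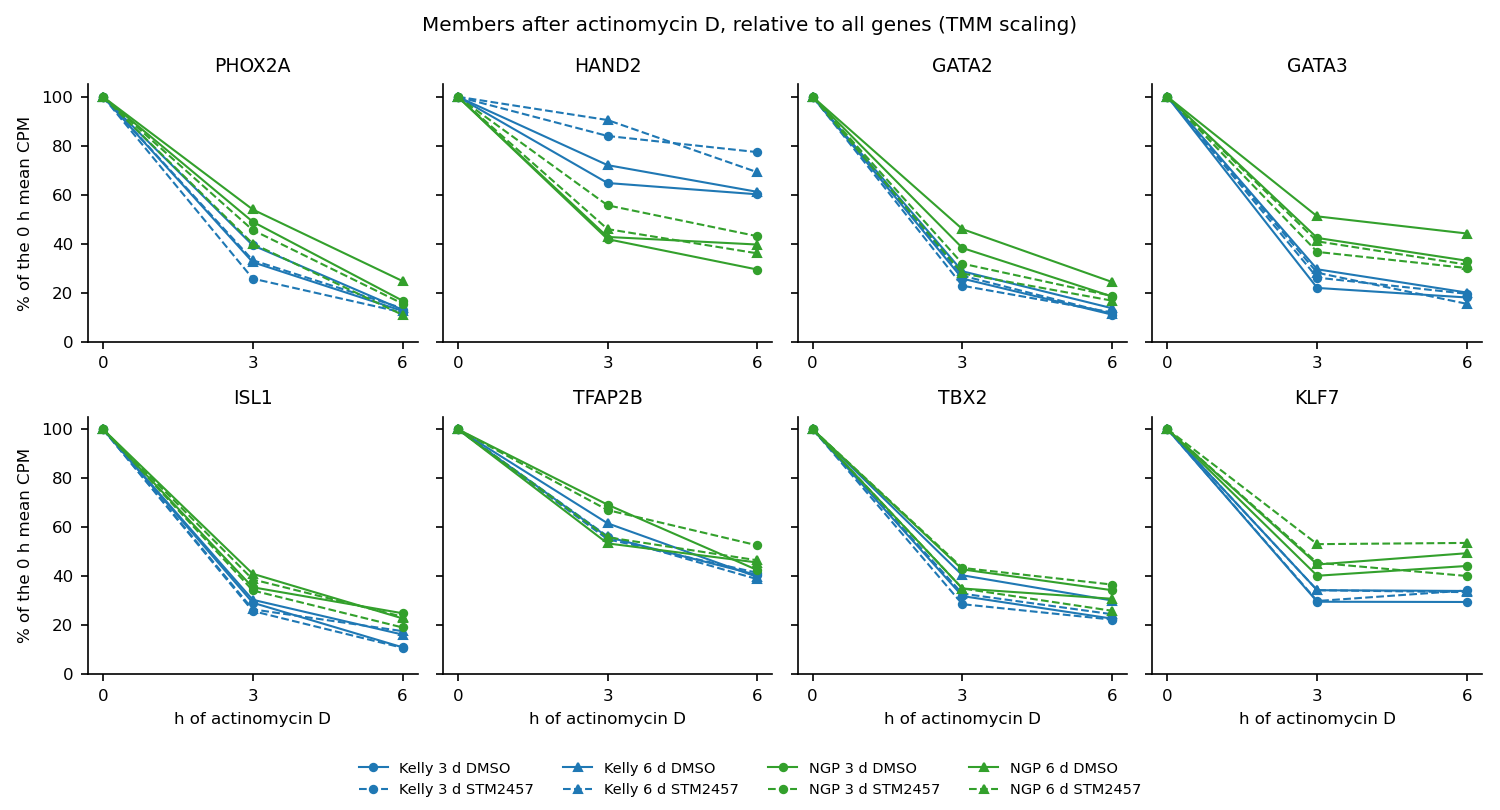
Mean CPM as a percentage of the 0 h mean of the same group (y axis) against hours of actinomycin D (x axis) for each factor, TMM-scaled. Blue lines are Kelly and green NGP, circles 3 days and triangles 6 days, solid DMSO and dashed STM2457, each from 2 libraries per time. HAND2 in Kelly stays above 60% while GATA2, ISL1 and PHOX2A in Kelly end at 10.8 to 17.6%.

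The lines differed in how much was left. Of the 8 factors, 5 differed between lines at 3 days in the actinomycin D change, against 1.59% of genes, and 4 at 6 days, against 4.25%. HAND2 lost more in NGP: its DMSO libraries at 3 days went from 1284 and 1272 CPM to 392 and 362, which left 29.5%. The line difference, NGP minus Kelly, was -1.03 ± 0.078 (adjusted p = 1.18e-16) at 3 days and -0.63 ± 0.077 (adjusted p = 9.25e-09) at 6 days.

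The other called differences were all in the opposite direction, a smaller loss in NGP. GATA3 in NGP DMSO went from 446 and 419 to 131 and 155 CPM at 3 days and from 369 and 358 to 159 and 163 at 6 days. Its line differences were 0.87 ± 0.15 and 1.13 ± 0.15 (adjusted p = 0.000132 and 7.19e-08). GATA2 differed by 0.74 ± 0.15 and 0.82 ± 0.16 (adjusted p = 0.00216 and 0.000257). PHOX2A differed at 6 days by 0.98 ± 0.20 (adjusted p = 0.000680). ISL1 and TBX2 differed at 3 days by 1.18 ± 0.28 and 0.60 ± 0.16 (adjusted p = 0.0135 and 0.0400). The 3-day calls of GATA2, ISL1 and TBX2 ended under ERCC scaling (0.36, 0.80 and 0.22) and in 1, 4 and 6 of 8 fits that left out a library. Without NGP DMSO 6 h replicate 1 all 3 of these calls ended. That of ISL1 also ended without Kelly DMSO replicate 1 at 0 h or 6 h or NGP DMSO 0 h replicate 2, and that of TBX2 without any 1 of the 4 DMSO 0 h libraries or Kelly DMSO 6 h replicate 1. These changes share the 0 h DMSO libraries with the level differences between lines given above.

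Whether STM2457 altered the loss was tested as the decay difference, the 6 h change in STM2457 minus that in DMSO. Relative to all genes, HAND2 was lost less with STM2457 at 3 days in both lines, though in Kelly the value turned to -0.04 under ERCC scaling. PHOX2A and GATA3 were lost more at 6 days in NGP, where the GATA3 call ended under ERCC scaling. In Kelly 1 of 8 factors passed at 3 days, against 0.221% of genes, and 0 at 6 days, against 0.424%. In NGP 1 of 8 passed at 3 days, against 0.703%, and 2 of 8 at 6 days, against 2.54%. For Kelly at 6 days, DESeq2 and limma-voom also called 0 factors, and 3 had an unadjusted p under 0.05 in edgeR. Under ERCC scaling, with the median of all genes at 0.70, 6 were called there, all above 0, among them GATA2 (0.42), TFAP2B (0.67) and KLF7 (0.68), whose TMM values were below 0. Of all genes, 30% were called under that scaling, 99.6% of these above 0, and the median of the 8 factors was 0.67.

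HAND2 in NGP at 3 days started from 1284 and 1272 CPM in DMSO and 1321 and 1313 in STM2457. At 3 h it read 517 and 555 against 736 and 732, and at 6 h 392 and 362 against 556 and 579.9. The starting levels were nearly equal and the treated libraries were higher at both later times, which left 29.5% in DMSO and 43.1% in STM2457. The decay difference was 0.53 ± 0.078 (adjusted p = 1.27e-05) and passed in all 8 fits that left out a library and under ERCC scaling (0.67).

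In Kelly at 3 days HAND2 went from 915 and 908 to 548 and 549 CPM in DMSO, and from 787 and 798 to 613 and 615 in STM2457. The order of the groups thus reversed over 6 h, with 60.2 and 77.4% left and a decay difference of 0.36 ± 0.085 (adjusted p = 0.0175). Under ERCC scaling the value was -0.04 with the median of all genes at -0.37. The call ended without either replicate of either 0 h group or without replicate 1 of either 6 h group. At 6 days HAND2 in Kelly had 0.18 ± 0.085 (adjusted p = 0.582), and in NGP -0.13 ± 0.078 (adjusted p = 0.535). ERCC scaling called both, at 0.87 and 0.30 (adjusted p = 1.47e-15 and 0.0112), with medians of all genes at 0.70 and 0.41. The decay difference and the STM2457 effect at 0 h share the 0 h libraries, so a low treated value at 0 h enters both.

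PHOX2A in NGP at 6 days went from 119.9 and 133 CPM to 70.8 and 65.8 at 3 h and 31.0 and 31.8 at 6 h in DMSO. With STM2457 it went from 173 and 169 to 71.7 and 65.5 and then 21.8 and 15.8. Treated libraries were higher at 0 h, overlapped with DMSO at 3 h and were lower at 6 h, so 24.8% was left in DMSO and 11% in STM2457. The decay difference was -1.15 ± 0.18 (adjusted p = 2.91e-06), it passed in all 8 fits that left out a library, and it was -0.72 under ERCC scaling. At 3 days in NGP it was -0.14 ± 0.17, and in Kelly -0.12 ± 0.19 and 0.12 ± 0.19, none of which passed.

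GATA3 in the same cells started level, at 369 and 358 CPM in DMSO and 355 and 361 in STM2457. It ended at 159 and 163 in DMSO and 116 and 109 in STM2457, and these 6 h groups did not overlap. The decay difference was -0.48 ± 0.12 (adjusted p = 0.0104), a call that ended without STM2457 replicate 2 at 0 h or at 6 h, and under ERCC scaling (-0.05, with the median of all genes at 0.41). GATA2 at -0.53 ± 0.19 (adjusted p = 0.157) did not pass. The other decay differences of the 8 genes lay between -0.40 ± 0.23 for ISL1 in NGP at 3 days and 0.29 ± 0.19 for TFAP2B in NGP at 3 days, and none passed.

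**Figure D4:**
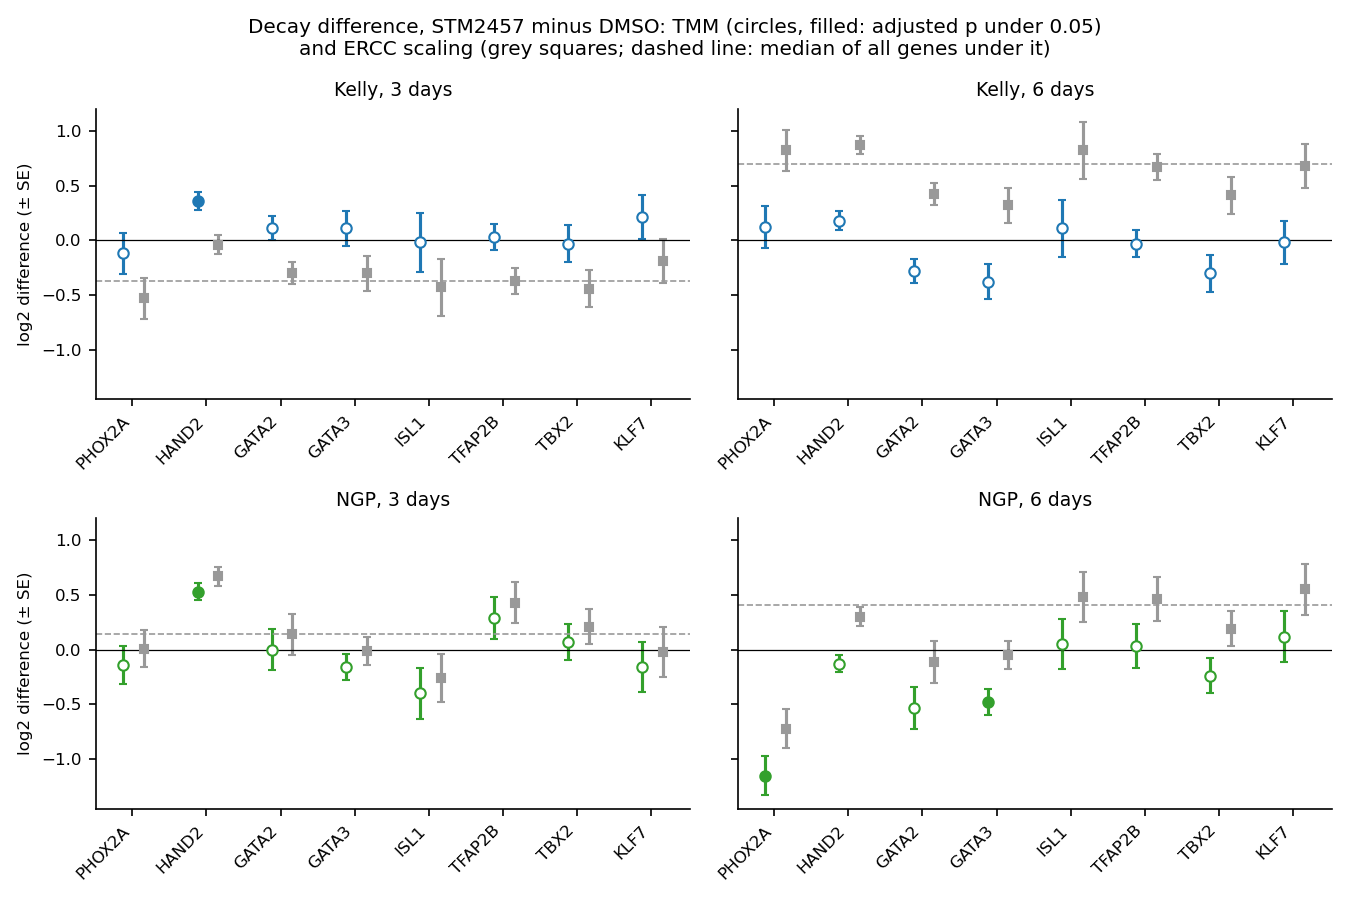
Decay difference, the log2 6 h change in STM2457 minus that in DMSO (y axis), for the 8 factors (x axis) in each line and duration, with SE bars. Coloured circles are the TMM-scaled estimates, filled where the adjusted p was under 0.05, grey squares the ERCC-scaled ones, and the dashed line the ERCC-scaled median of all genes. HAND2 is called at 3 days at 0.36 in Kelly, where ERCC scaling gives -0.04, and at 0.53 in NGP, and PHOX2A in NGP at 6 days is lowest at -1.15.

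**Figure D5:**
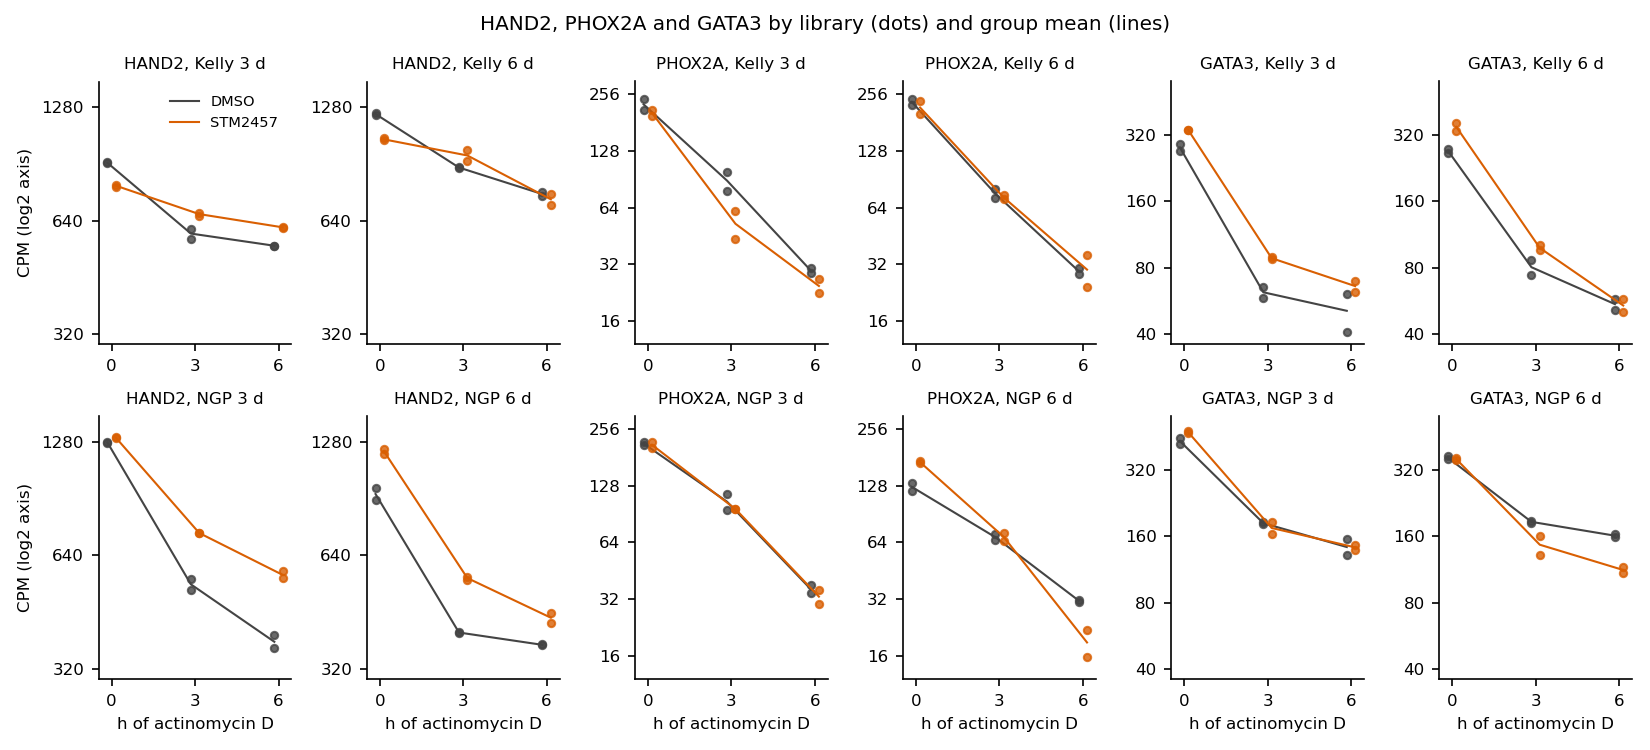
CPM on a log2 axis (y) against hours of actinomycin D (x) for HAND2, PHOX2A and GATA3 in each line and duration, with the same range for all panels of a gene. Dots are libraries and lines join group means, grey for DMSO and orange for STM2457. In NGP at 6 days the PHOX2A lines cross, from 173 and 169 against 119.9 and 133 at 0 h to 21.8 and 15.8 against 31.0 and 31.8 at 6 h.

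Other adrenergic factors were read from a list of 14 at 0 h. Of these, 0 passed in Kelly after 3 days, while 1 rose and 1 fell after 6. NGP had 2 that fell after 3 days and 1 after 6. Over all genes, 1.68 and 3.97% were called in Kelly and 3.7 and 7.99% in NGP. SIX3, a homeobox factor, fell in NGP at 3 days by 0.90 ± 0.17 (adjusted p = 0.000111). After 6 h of actinomycin D in DMSO, 10 and 11 of the 14 were lower in the 2 durations of Kelly, 9 and 10 in those of NGP, and 0 were higher, against 15.6, 13.3, 18.4 and 18.7% of all genes called lower.

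A list of 10 noradrenergic genes held products of this circuitry, such as catecholamine enzymes and transporters. Kelly had 1 that rose and 5 that fell after 3 days of STM2457, then 4 and 5 after 6 days. NGP had 3 that rose and 1 that fell, then 3 and 0, beside the same shares of all genes called. Several of the 10 were near 0 in NGP at 0 h: TH at 0.116 to 2.13 CPM, SLC18A1 at 0 to 2.5, SLC18A2 at 0.116 to 1.11 and CYB561 at 1.74 to 3.14. SLC18A1, a vesicular monoamine transporter, fell by 0.99 ± 0.17 in Kelly at 3 days (adjusted p = 1.51e-05). RET, a receptor tyrosine kinase of sympathetic neurons, rose in Kelly at 6 days by 1.44 ± 0.11 and in NGP by 0.77 ± 0.14 and 0.58 ± 0.14 at 3 and 6 days. In the same order of groups, 7, 7, 5 and 4 of the 10 were called higher after 6 h of actinomycin D in DMSO, and 1, 0, 0 and 0 lower. Of all genes tested, 2420 and 2220 of 16759 were called higher in Kelly and 2781 and 2641 of 14661 in NGP.

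Markers of other cell states were followed beside these results. The summed CPM of 17 mesenchymal neuroblastoma markers at 0 h was 289 to 323 in DMSO and 338 to 366 in STM2457 in Kelly, and 209 to 244 against 317 to 360.2 in NGP, and its part in the factors' changes was not tested. Much of the sum came from FOSL2 (116 to 162 CPM) and FN1 (65.7 to 104) in Kelly. In NGP it came from VIM (58.9 to 133), FN1 (50 to 117) and FOSL2 (47.1 to 79.9), and many other listed genes were near 0. Of the 17 tested in Kelly 0 and 1 were called higher after the 2 durations, where 97 and 453 of 16759 genes were, and of the 13 tested in NGP 2 and 3, where 183 and 652 of 14661 were. The called genes included FN1 (0.59 ± 0.13 in Kelly at 6 days), VIM (0.78 ± 0.11 in NGP at 3 days) and SNAI2 (1.55 ± 0.50 in NGP at 6 days). The mesenchymal factor PRRX1 was at 0.278 to 0.936 CPM in Kelly and 5.35 to 11.9 in NGP, and MEOX1 was at 0 in all 0 h libraries. Schwann cell markers, 5 genes in the files, summed to 1.00 to 5.37 CPM over all 0 h libraries, and PNMT, the adrenaline-making enzyme of chromaffin cells, reached 0.945 CPM at most.

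Paralogs that could share reads with the 8 genes were also read. GATA4 was at 0 to 0.841 CPM in Kelly and 36.5 to 47.9 in NGP, and HAND1 at 108 to 318 and 186 to 319. Of 7 paralogs tested, 0 changed with STM2457 in Kelly. In NGP TBX3, a close relative of TBX2, rose by 0.84 ± 0.20 at 3 days (adjusted p = 0.00298), and at 6 days 1 paralog rose and 1 fell, ISL2, a relative of ISL1, by 1.14 ± 0.38 (adjusted p = 0.0487).

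Across the 12 group means of a line, which share the 0, 3 and 6 h steps of actinomycin D, the log2 levels of the factors had Pearson's r from 0.37 to 0.97 in Kelly and from 0.50 to 0.96 in NGP. GATA2 and PHOX2A had r of 0.97 in Kelly and 0.96 in NGP, and GATA3 and ISL1 0.95 in both. HAND2 in Kelly had r of 0.37 to TBX2 and 0.60 to GATA2, against 0.92 and 0.90 in NGP. Among 8457 other genes with at least 10 CPM in both lines, the most similar were ASXL1 for PHOX2A (r of 0.98 in both lines), CHD1 for GATA3 (0.98 in both), CAMSAP1 for GATA2 (0.97 in both) and H2AC21 for ISL1 (0.97 in both). H3C2 was nearest to KLF7 (0.98 in Kelly and 0.97 in NGP), STIL to TBX2 (0.96 and 0.94), TWIST1 to TFAP2B (0.98 and 0.92) and GAB2 to HAND2 (0.92 and 0.95). These are descriptions over 12 points a line.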

How the data were processed

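The authors deposited raw fragment counts per gene, summed over exons of each gene name by featureCounts 1.5.3, per the file headers, for the protein-coding genes of GENCODE release 33 and 92 ERCC sequences. No option for strand is named there. FastQC 0.11.5, Trimmomatic 0.36, HISAT2 2.1.0 and the build GRCh38 are named, per the submitters' processing notes. Groups come from the sample titles. When the ERCC RNAs were added is not given in the sources used here.

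Counts were tested with edgeR 4.0.16 (R 4.3.3) by the quasi-likelihood test with TMM scaling and filterByExpr (minimum count 10, minimum total 15). One fit per line (24 libraries, 12 groups; 16759 genes in Kelly, 14661 in NGP) and 1 joint fit of 48 libraries (17343 genes) for line differences were made. The p-values were adjusted by Benjamini-Hochberg over all genes of a comparison, threshold 0.05. SEs are the absolute log2 difference divided by the square root of F. The procedure was tested on simulated counts. Its first criterion, a minimum share of altered genes called, was not met for halved genes and was replaced after that was seen. Genes that did not pass are therefore not shown to be unchanged. As alternatives, scaling by ERCC, by RLE or by library size alone was tried, as were no low-count filter, DESeq2 1.42.0 and limma-voom (limma 3.58.1). The same duration only, a replicate block and leaving out each library were also tried. The fits that left out a library kept the genes and the trend of the spread (dispersion) of the full fit.

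Named genes were the 8 factors, the most similar other gene of each, and from each other list at most 1 called gene per 0 h comparison, of largest change. GATA4, HAND1, PRRX1, MEOX1, PNMT, FOSL2, TH, SLC18A2 and CYB561 were named outside this rule, for their levels, after their values were seen. The members and lists were chosen with earlier results of these data known. Some listed genes are not reported here. The median of all genes under each scaling was added after the data were seen. The replicates of a group differed by more than counting noise.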

Additional observations from a re-analysis of the deposited data

Results flagged for a closer look

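In all, 15 differences of an effect between lines or durations passed the test of the difference itself (edgeR, adjusted p under 0.05). All are described above, though not each with its levels. The STM2457 effect changed from 3 to 6 days for TBX2 in Kelly (0.72, adjusted p = 0.00691) and for HAND2 in NGP (0.34, adjusted p = 0.00212). The STM2457 effect differed between lines, NGP minus Kelly, for TFAP2B at 3 days (0.81, adjusted p = 0.00224) and at 6 days (0.92, adjusted p = 1.89e-05), for HAND2 at 6 days (0.60, adjusted p = 3.83e-08) and for TBX2 at 6 days (-0.59, adjusted p = 0.0366).

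The actinomycin D change in DMSO differed between lines at 3 days for HAND2 (-1.03), GATA2 (0.74), GATA3 (0.87), ISL1 (1.18) and TBX2 (0.60), with adjusted p of 1.18e-16, 0.00216, 0.000132, 0.0135 and 0.0400. At 6 days it differed for HAND2 (-0.63), GATA2 (0.82), GATA3 (1.13) and PHOX2A (0.98), with adjusted p of 9.25e-09, 0.000257, 7.19e-08 and 0.000680. HAND2 was thus the 1 factor with a larger loss in NGP at both durations.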

How the results depend on the processing

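All 8 factors were called lower after 6 h of actinomycin D in both treatments under every alternative and in every fit that left out a library. ERCC scaling moved several other counts of called factors. It gave 6 for the STM2457 effect in Kelly at 3 days (main 1), 3 and 6 for the decay difference in Kelly at 3 and 6 days (1 and 0), 7 for the duration effect and 6 for the duration dependence in Kelly (4 and 1), 0 for the duration dependence in NGP (1) and 2 for the line difference in the actinomycin D change at 3 days (5). It also turned these signs, with the median of all genes shifted the same way: the STM2457 effect in Kelly at 3 days of HAND2 (0.19) and GATA2 (0.27); the decay difference of HAND2 (-0.04), GATA2 (-0.30) and TFAP2B (-0.37) in Kelly at 3 days, of GATA2 (0.42), TFAP2B (0.67) and KLF7 (0.68) at 6 days, and of HAND2 in NGP at 6 days (0.30); the duration effect of GATA3 in Kelly (0.31); the duration dependence in Kelly of PHOX2A (-0.57), HAND2 (-0.65), GATA2 (-0.43), GATA3 (-0.53) and KLF7 (-0.55); and the 3-day line difference of PHOX2A (0.34). Whether the spike-ins or TMM give the truer scale was not tested. Library size alone, and a fit on the same duration only, each left 0 calls for the STM2457 effect in Kelly at 3 days. DESeq2 and limma-voom each gave 2 for the duration dependence in NGP and 2 for the line dependence at 3 days (main 1 each), and limma-voom gave 6 for the line dependence at 6 days (main 3) and 3 for the line difference in the actinomycin D change at 3 days (main 5). Leaving out 1 library, where the lone sample is assumed to vary like the other groups, gave 0 to 0 calls for the STM2457 effect in Kelly at 3 days, 2 to 3 at 6 days and 0 to 1 in NGP at 3 days. It gave 0 to 1 for the decay difference in Kelly at 3 days and 1 to 3 in NGP at 6 days, 0 to 1 for the duration dependence in Kelly, 0 to 1 for the line dependence at 3 days and 2 to 5 for the line difference in the actinomycin D change at 3 days. Over single factors, 2621 alternative values stayed on their side of the threshold, 69 lost and 30 gained a call, and 16 turned sign with a call in either fit, all 16 under ERCC scaling. The replicate numbers did not pair the samples: deviations of same-numbered libraries had r of -0.06 to 0.09 in Kelly and -0.09 to 0.08 in NGP over 66 pairs of groups each. With the replicate block no count of called factors changed, for example 5 for the STM2457 effect in Kelly at 6 days. Over all genes, these counts of calls moved by over 1.5 times. ERCC scaling moved them from 282 to 3727 and 665 to 1170 for the STM2457 effect in Kelly after 3 and 6 days, and for the decay difference from 37 to 2418 and 71 to 5033 in Kelly and from 103 to 158 and 372 to 2592 in NGP. It also gave 2820 for the duration effect in Kelly (main 1428), 4009 for the duration dependence in Kelly (132), 644 and 488 for the line dependence at 3 and 6 days (28 and 303) and 1276 and 1402 for the line difference in the actinomycin D change (276 and 737). For the actinomycin D change itself it gave 8387 in STM2457 in Kelly at 3 days (4501) and, at 6 days in DMSO, 10389 in Kelly (4448) and 9876 in NGP (5380). It moved the share of calls that were higher from 34.4 to 99.1% for the first of these. DESeq2 gave 557 for the STM2457 effect in Kelly at 3 days and 900 in NGP at 3 days (542), 96 and 179 for the decay difference in Kelly and 167 and 593 in NGP, 309 and 660 for the duration dependence in Kelly and NGP (132 and 410), and 64 and 459 for the line dependence. With limma-voom the decay difference had 5 and 34 in Kelly and 54 in NGP at 3 days, the line dependence at 3 days 15 and the line difference in the actinomycin D change at 3 days 110. Without the low-count filter the line dependence at 3 days had 98, and the same duration only left 24 for the decay difference in Kelly at 3 days. The replicate block stayed within 1.5 times the main count in each comparison. Groups of 2 make SDs rough, and depth limits mainly ISL1 at 6 h, with as few as 9.11 CPM.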
